A study of Homo sapiens with 9 samples.

Results

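The unfolded protein response of the endoplasmic reticulum (ER) was followed here through 36 genes, which encode ER chaperones and their cofactors, disulfide isomerases and oxidases, stress sensors with their transcription factors, and proteins of ER-associated degradation. The genes were taken by symbol from a list of known members, with no measured value in the rule, although the list was drawn up with earlier results of these data known. All 36 were found, with 1 row each, among the 60664 genes of the count tables, and all 36 passed the filter on low counts that left 18299 genes to test. Total RNA was sequenced from HEK293 Flip-In T-Rex cells, a derivative of the human embryonic kidney line HEK293 in which an integrated transgene stays silent until tetracycline is added. The labels name 3 groups of 3 libraries. In the TTC33 knock-down (genotype label miTTC33) a tetracycline-inducible promoter drives a microRNA against TTC33, in the CCDC97 knock-down (miCCDC97) the same kind of promoter drives a microRNA against CCDC97, and the control cells express no microRNA. All 3 groups, controls included, were given tetracycline at 100 ng/ml for 3 days. Because the controls express no other microRNA, the expression of a microRNA as such and the loss of its target cannot be told apart. Whether a knock-down line is 1 clone is not given in the sources used here.

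Secreted and membrane proteins fold in the ER with the help of chaperones, lectins and disulfide isomerases, and those that fail are drawn back to the cytosol and degraded. When unfolded proteins gather in the ER, sensors in its membrane raise the unfolded protein response. PERK (gene EIF2AK3) slows translation, IRE1 (gene ERN1) splices the XBP1 mRNA into the form that encodes an active transcription factor, and ATF6 moves to the Golgi, where proteases release its transcription factor domain. Their targets include BiP (gene HSPA5), the other chaperones and the degradation machinery. Gene counts give mRNA levels and do not show splicing of XBP1, phosphorylation of PERK or cleavage of ATF6.

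Many of these genes are known to be switched on through short promoter elements, and the elements found near the starts of the members are shown because they tie the gene list to its transcription factors. ERSE, the ER stress response element bound by ATF6 and XBP1 together with NF-Y, reads CCAAT, any 9 bases, CCACG. It was found in the promoter window, 250 bases before to 50 after the start in the RefSeq table for GRCh38.p14, of 8 of the 32 members that the table holds (25%), against 25 of 27305 genes (0.0916%). Capitals mark the fixed parts of the element, and each sequence is written 5′ to 3′ on the strand that carries it.
HSPA5 (chr9:125241386-125241414, minus strand): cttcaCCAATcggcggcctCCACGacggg
CALR (chr19:12938379-12938407, minus strand): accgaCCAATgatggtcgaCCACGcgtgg
CRELD2 (chr22:49918549-49918577, minus strand): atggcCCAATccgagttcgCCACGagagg
ERO1B (chr1:236282178-236282206, plus strand): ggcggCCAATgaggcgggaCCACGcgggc
XBP1 (chr22:28800598-28800626, minus strand): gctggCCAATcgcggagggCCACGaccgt
PDIA6 (chr2:10812848-10812876, minus strand): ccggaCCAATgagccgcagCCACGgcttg
CANX (chr5:179698773-179698801, plus strand): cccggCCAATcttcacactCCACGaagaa
HSP90B1, first of 2 (chr12:103930211-103930239, plus strand): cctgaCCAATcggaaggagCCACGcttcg
HSP90B1, second of 2 (chr12:103930316-103930344, minus strand): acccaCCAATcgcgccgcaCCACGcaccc

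The related element ERSE-II reads ATTGG, any 1 base, CCACG. It was found in 3 of the 32 members (9.38%), namely HYOU1, SDF2L1 and HERPUD1, against 19 of the 27305 genes (0.0696%). The element UPRE, searched as TGACGTGG, was found in DNAJC10 and in HYOU1 (6.25% of the members, against 253 genes or 0.927%), and in HYOU1 it overlaps an ERSE-II. An ATF4-type site, TTGCATCA, was found in HERPUD1 alone among the members (3.13%, against 295 genes or 1.08%). In all, 12 of the 32 members held an ERSE, an ERSE-II or a UPRE (37.5%, against 295 genes or 1.08%), all of them before the start. DERL1, DERL3, PDIA3 and SEC24D are named only, without a window. Both strands were searched. A match describes letters in a window and not a bound site, and a window without a match says nothing of the factor.
HYOU1, first of 2 (chr11:119057269-119057289, plus strand): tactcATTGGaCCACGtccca
HYOU1, second of 2 (chr11:119057375-119057395, plus strand): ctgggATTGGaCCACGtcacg
SDF2L1 (chr22:21642109-21642129, minus strand): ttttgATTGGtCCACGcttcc
HERPUD1 (chr16:56932020-56932040, plus strand): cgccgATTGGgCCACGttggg

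**Figure D1:**
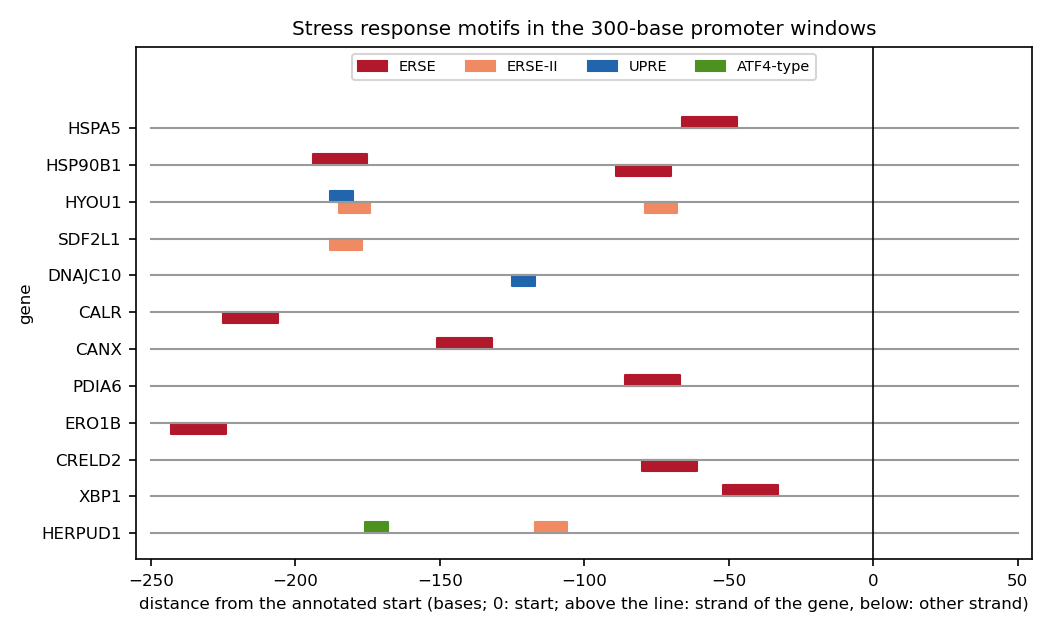
Position of the elements in the promoter windows of the 12 members that held an ERSE, an ERSE-II or a UPRE, as distance in bases from the RefSeq start (0 on the horizontal axis, vertical line), with 1 row per gene. Bars above a gene's line lie on the strand of the gene and bars below it on the other strand; every bar lies left of the start, and the bars of HYOU1 near 188 and 185 bases before the start overlap.

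Each library held 21764203 to 36110891 counts assigned to genes. The TTC33 knock-down libraries held 30921816, 28082168 and 25846816, all fewer than the 35262832, 36110891 and 31296393 of the controls. Those of the CCDC97 knock-down held 28366419, 31801574 and 21764203. TTC33 mRNA had 9.67, 6.41 and 6.16 CPM (counts scaled to a library total of 1000000) in the TTC33 knock-down, against 37.7, 37.1 and 38.6 CPM in controls (log2 fold change -2.34). CCDC97 mRNA had 15.8, 15.3 and 15.7 CPM in the CCDC97 knock-down, against 60.6, 60.1 and 59.5 CPM in controls (-1.94). Of the HEK293 markers VIM, CDH2, NEFL, KRT8 and KRT18 had at least 76.1 CPM in controls, PAX2 and LHX1 had 5.33 to 6.37 CPM and NEFM 0.608 to 0.925 CPM, while PTPRC and ALB, markers of blood and liver, had at most 0.212 CPM in any library. MYOD1 had at most 0.52 CPM, and COL1A1, MITF and SDC1, which are not confined to other cell types, had 5.95 to 46.2 CPM. In either knock-down, levels in replicate 1 followed the GC content of transcripts otherwise than in replicates 2 and 3, which touches the results below and is given with them. Whether replicates came from separate cultures is not in the labels, and p-values therefore cover no more than how far these 9 libraries differ within groups, perhaps for technical reasons alone. A change in the share of cells that express a gene cannot be told apart from a change in each cell.

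Levels of the members spanned a wide range in control cells. Per kilobase of transcript, the lectin chaperone gene CALR (412 CPM per kilobase), the ER Hsp90 gene HSP90B1 (398) and the membrane lectin gene CANX (353) had the highest levels. P4HB (175) and PDIA6 (121), which encode disulfide isomerases, and HSPA5 (107) lay below them. The lowest levels on that scale were those of the sensor genes ERN1 (2.05 CPM per kilobase) and EIF2AK3 (6.11) and of WFS1 (4.1), while the sensor gene ATF6 had 11.7. Summed over the 36 genes, the level was 7449, 7100 and 7026 CPM in the TTC33 knock-down, 6783, 7261 and 7120 CPM in the CCDC97 knock-down, and 6812, 6958 and 6978 CPM in controls. All 3 TTC33 knock-down sums lay above all control sums, the lowest of them narrowly, and the CCDC97 knock-down sums lay on both sides of them. Genes with many counts weigh most in such sums. CANX, the largest part, had 1610.2, 1284 and 1221 CPM in the TTC33 knock-down and 1478, 1516 and 1521 CPM in controls.

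**Figure D2:**
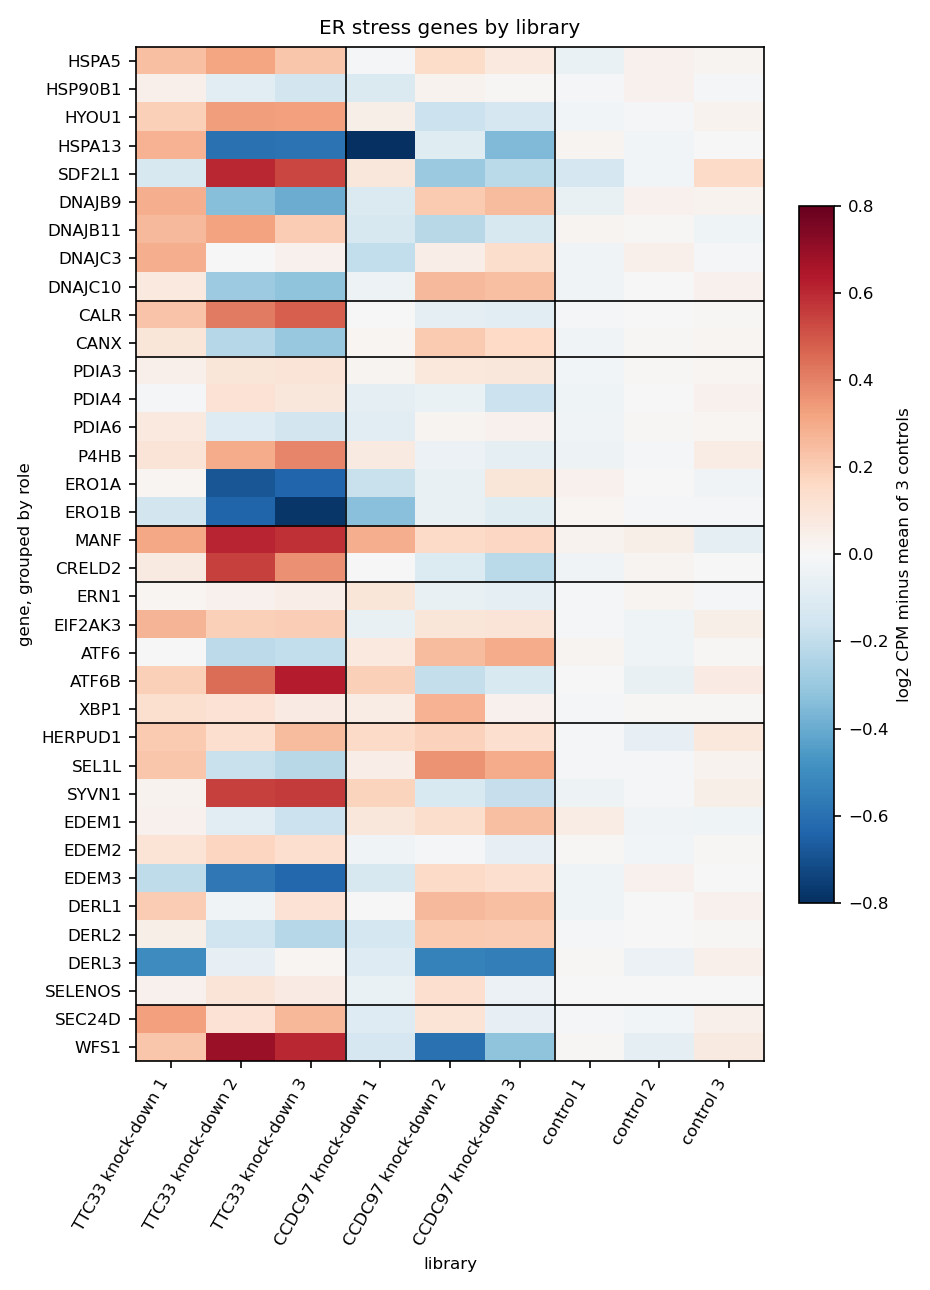
Level of each of the 36 genes (rows, grouped by role) in each of the 9 libraries (columns), as log2 CPM minus the mean of the 3 controls; red is above and blue below that mean. MANF is above it in all 6 knock-down libraries, and HSPA13, ERO1A and EDEM3 are lower in TTC33 knock-down replicates 2 and 3 than in replicate 1.

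With TTC33 depleted, 9 of the 36 genes passed the adjusted p threshold of 0.05 against control, 25.0% of the members where 11.9% of all genes tested passed (edgeR quasi-likelihood test, Benjamini-Hochberg over the 18299 genes). The 7 that rose, against a background of 6.5% of all genes higher, were the chaperone genes HSPA5, HYOU1, DNAJB11 and CALR, the secreted stress protein gene MANF, the transcription factor gene ATF6B and the ER membrane protein gene WFS1, by 1.2-fold to 1.43-fold. EDEM3, which trims glycans of misfolded proteins, and ERO1B, an ER oxidase gene, fell (background 5.44% lower). The members' median log2 fold change was 0.09 and that of all genes 0.0045, and 22 of the 36 lay above 0. In 16 members all 3 TTC33 knock-down libraries lay above all controls (background 19%), and in 2 all lay below (17.8%). The share of all genes that passed depends on how many weakly expressed genes are tested. With only the 11521 genes of at least 5 CPM on average tested, 8 members passed, against 16% of those genes.

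Among the Hsp70 and Hsp90 chaperones and their cofactors, 3 of 9 rose and none fell. HSPA5 (ENSG00000044574; chromosome 9, 125234853 to 125241330, minus strand, all coordinates on GRCh38) encodes BiP, the central Hsp70 of the ER and a usual marker of the response. It had 494, 521 and 489 CPM in TTC33 knock-down cells, against 404, 429 and 424 CPM in controls. The groups did not overlap, and the log2 fold change was 0.26 ± 0.06 (SE; adjusted p = 0.0279).

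HYOU1 (chromosome 11, 119044189 to 119057202, minus strand), the ER Hsp110 that exchanges the nucleotide of BiP, had 243, 269 and 267 CPM in the TTC33 knock-down and 209.8, 211 and 217 CPM in controls, again without overlap (log2 fold change 0.29 ± 0.07, adjusted p = 0.0312). DNAJB11 (chromosome 3, 186567403 to 186585800, plus strand), a J-domain cofactor of BiP, had 51.7, 53.9 and 49.7 CPM in the TTC33 knock-down and 43.8, 43.5 and 42.2 CPM in controls (0.26 ± 0.07, adjusted p = 0.0346). Every TTC33 knock-down library was above every control for both genes. Both share exon bases with other annotated genes, HYOU1 666 with an antisense gene and DNAJB11 496 with an antisense and 451 with a same-strand gene, and the strand setting of the counting is not given in the sources used here.

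The other 6 genes of that role did not pass. DNAJB9, a J-domain protein known as a target of the IRE1 and XBP1 branch, had 22.5, 14.4 and 13.9 CPM in the TTC33 knock-down and 17.5, 18.7 and 18.7 CPM in controls. Replicate 1 lay above the controls and replicates 2 and 3 below them (-0.11 ± 0.17, adjusted p = 0.691). SDF2L1, which works with J-domain cofactors of BiP, had 15, 24.9 and 23.8 CPM and 14.9, 16.2 and 18.3 CPM in controls (0.37 ± 0.18, adjusted p = 0.183), with replicate 1 in the range of the controls. HSP90B1, the ER Hsp90, had a log2 fold change of -0.06 (95% interval -0.21 to 0.09), DNAJC3, an inhibitor of PERK and a BiP cofactor, 0.11 (-0.11 to 0.34), and DNAJC10, a disulfide reductase of the degradation pathway, -0.17 (-0.42 to 0.08). HSPA13, a microsomal Hsp70, had 87.1, 47.5 and 47.5 CPM against 72.9, 70.6 and 71.7 CPM in controls, with replicate 1 above and the others below (-0.24, adjusted p = 0.499).

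The lectin chaperones of the calnexin cycle, which hold glycoproteins while they fold, did not move as one. CALR (chromosome 19, 12938578 to 12944489, plus strand), the soluble lectin calreticulin, had 917, 1044 and 1093 CPM in TTC33 knock-down cells and 775, 786 and 789.6 CPM in controls. It rose, without overlap between the groups (log2 fold change 0.38 ± 0.07, adjusted p = 0.00941). CALR shares 270 exon bases with an antisense gene. CANX, its membrane-bound counterpart, had 1610.2, 1284 and 1221 CPM in the TTC33 knock-down and 1478, 1516 and 1521 CPM in controls. Replicate 1 was above and replicates 2 and 3 were below every control, and the difference did not pass (-0.13 ± 0.10, adjusted p = 0.373).

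Of the disulfide isomerases and oxidases, which form and reshuffle disulfide bonds, 1 of 6 passed and it fell. ERO1B (chromosome 1, 236215555 to 236281985, minus strand), an oxidase that recharges the isomerases, had 55.7, 39.5 and 35.8 CPM in the TTC33 knock-down and 62.4, 61.3 and 61.1 CPM in controls, all lower (log2 fold change -0.50 ± 0.14, adjusted p = 0.0457). Its paralog ERO1A had 127, 78.3 and 81.1 CPM against 129, 125 and 124 CPM in controls, with replicate 1 among the controls, and did not pass (-0.40 ± 0.16, adjusted p = 0.115).

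P4HB, the founding protein disulfide isomerase, lay just outside the threshold. It had 489, 558 and 596 CPM in the TTC33 knock-down and 443, 449.7 and 474 CPM in controls, without overlap (0.27 ± 0.08, adjusted p = 0.0538). The isomerase genes PDIA3, PDIA4 and PDIA6 had log2 fold changes of 0.08 (95% interval -0.04 to 0.20), 0.06 (-0.07 to 0.20) and -0.05 (-0.21 to 0.10). PDIA3 has pseudogenes that could take its reads, which held at most 65 counts in a library.

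MANF and CRELD2 encode small secreted proteins that leave stressed cells. MANF (chromosome 3, 51385047 to 51389397, plus strand) had the lowest adjusted p of the members, with 48.4, 59.5 and 58.7 CPM in the TTC33 knock-down, against 39.9, 40.4 and 37 CPM in controls (log2 fold change 0.51 ± 0.09, adjusted p = 0.00733). All TTC33 knock-down libraries were above all controls. CRELD2 had 28.1, 39.1 and 34.4 CPM in the TTC33 knock-down and 26.2, 27.2 and 26.8 CPM in controls, also without overlap, and did not pass (0.34 ± 0.11, adjusted p = 0.0736).

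Among the sensors and transcription factors 1 of 5 passed. ATF6B (chromosome 6, 32115264 to 32128253, minus strand), a relative of ATF6 that is cut in the same way, had 43.6, 51.9 and 58.9 CPM in TTC33 knock-down cells and 38, 36.5 and 39.95 CPM in controls. All were above the controls (log2 fold change 0.43 ± 0.12, adjusted p = 0.0454). ATF6B shares 289 and 71 exon bases with other genes annotated on the same strand. ATF6 itself had 87.7, 76 and 76.7 CPM against 89.4, 86 and 88.5 CPM in controls, with replicate 1 among the controls and the others below (-0.13 ± 0.08, adjusted p = 0.287). ERN1, the gene of IRE1, had 16.3, 16.5 and 16.8 CPM against 16, 16.4 and 16 CPM in controls (log2 fold change 0.03, 95% interval -0.14 to 0.21). Its libraries lay within a narrow span in both groups.

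EIF2AK3, the gene of PERK, had 34.3, 32.3 and 32.6 CPM in the TTC33 knock-down and 28.1, 27.7 and 29.3 CPM in controls (0.22 ± 0.08, adjusted p = 0.085). The total mRNA of XBP1, spliced and unspliced forms together, had 103, 102 and 99 CPM against 93.4, 95.3 and 95 CPM in controls (0.10 ± 0.08, adjusted p = 0.382). In both genes every TTC33 knock-down library lay above every control, and neither passed.

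Of the 10 genes of ER-associated degradation, which finds misfolded proteins and sends them to the proteasome, only EDEM3 passed. EDEM3 (chromosome 1, 184690231 to 184754913, minus strand) had 97.6, 75.5 and 72.4 CPM in the TTC33 knock-down and 109.6, 115 and 112 CPM in controls. It fell, with all TTC33 knock-down libraries below the controls (log2 fold change -0.45 ± 0.11, adjusted p = 0.0291). Its relatives EDEM1 and EDEM2 had log2 fold changes of -0.07 (95% interval -0.24 to 0.10) and 0.14 (-0.03 to 0.31).

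SYVN1, the ubiquitin ligase HRD1 at the centre of the pathway, had 37.5, 53.7 and 54.2 CPM in the TTC33 knock-down and 35.8, 36.6 and 38 CPM in controls. Replicate 1 lay among the controls and replicates 2 and 3 above them (0.40 ± 0.14, adjusted p = 0.0848). SYVN1 shares 398 exon bases with FAU on the same strand. HERPUD1, which brings substrates to that ligase, had 52.4, 49.7 and 54.2 CPM against 44.8, 43.3 and 48 CPM in controls, all higher, and did not pass (0.20 ± 0.07, adjusted p = 0.0899). SEL1L, the partner of HRD1, had a log2 fold change of -0.04, the derlin genes DERL1, DERL2 and DERL3 had 0.10, -0.11 and -0.17, and SELENOS, a selenoprotein of the same machinery, had 0.07. DERL3 shares 2923 of its 3796 exon bases with SMARCB1 on the other strand, so its counts are uncertain.

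WFS1 (chromosome 4, 6269849 to 6303265, plus strand), the ER membrane protein wolframin, had 17.4, 24.1 and 22.7 CPM in TTC33 knock-down cells and 15, 14.1 and 15.6 CPM in controls. It rose in all 3 libraries, with the lowest value in replicate 1 (log2 fold change 0.52 ± 0.14, adjusted p = 0.0367). SEC24D, a cargo adaptor of the vesicles that leave the ER, had 39.4, 34 and 37.6 CPM against 30.9, 30.8 and 32.2 CPM in controls, all higher, and did not pass (0.24 ± 0.09, adjusted p = 0.0912).

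**Figure D3:**
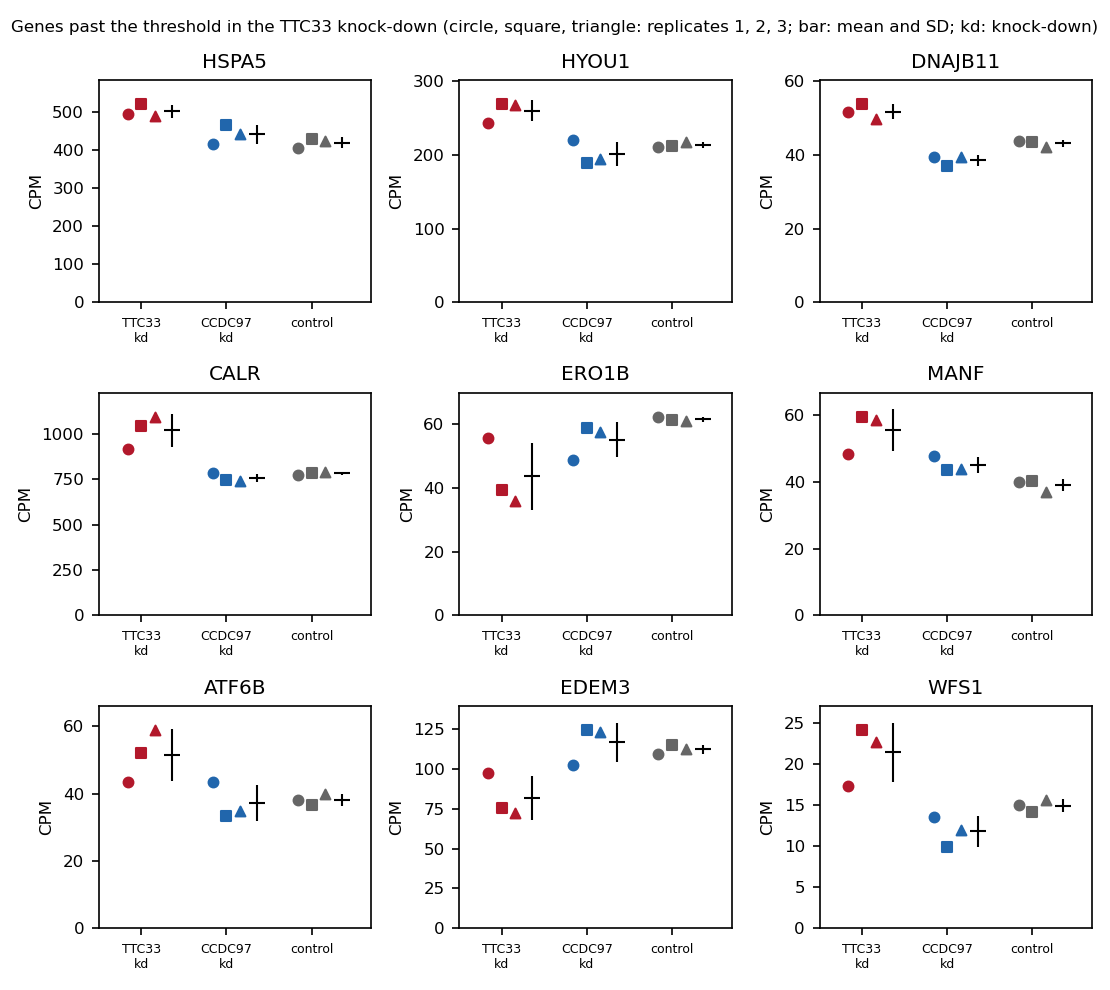
CPM of the 9 genes that passed in the TTC33 knock-down, per library (points) with the mean and SD of each group (black bars), for the TTC33 knock-down, the CCDC97 knock-down and control. The TTC33 knock-down points of each gene lie wholly above or, for ERO1B and EDEM3, wholly below the control points. For every gene but HSPA5 and DNAJB11, replicate 1 (circle) is the TTC33 knock-down library nearest to the control points.

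How many members passed depended on the libraries in the fit, and the share of all genes that passed moved in the same way. Without TTC33 knock-down replicate 1, 2 or 3 the count against control was 18, 1 or 2, where 34.9%, 3.46% or 3.73% of all genes passed. Without CCDC97 knock-down replicate 1, 2 or 3 it was 10, 7 or 4, where 16%, 10% or 8.97% of all genes passed. Without control replicate 1, 2 or 3 it was 1, 1 or 2, where 2.96%, 3.05% or 3.67% passed. MANF passed in all 9 of these fits, with log2 fold changes of 0.45 to 0.59. CALR passed in 6 and HSPA5 and EDEM3 in 4. The other 5 passed in 2 or 3 fits, and no member that passed changed its sign in any of them.

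With CCDC97 depleted, none of the 36 genes passed against control, where 4.56% of all genes tested passed. By edgeR's test 5 members had an unadjusted p under 0.05, 2 higher and 3 lower, against 20.6% of all genes. DESeq2 called 0 members, where it called 9.15% of all genes. The median log2 fold change of the members was -0.0079, and 7 members had all CCDC97 knock-down libraries above all controls (background 14.9%) and 6 had all below (15%).

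BiP mRNA (HSPA5) had 415, 464 and 442 CPM in CCDC97 knock-down cells, against 404, 429 and 424 CPM in controls (log2 fold change 0.07, 95% interval -0.07 to 0.21). Replicate 1 lay among the controls and replicates 2 and 3 above them. Of the 7 genes that rose with TTC33 depleted, MANF had 47.8, 43.4 and 43.9 CPM in the CCDC97 knock-down, above the 39.9, 40.4 and 37 CPM of the controls (0.20 ± 0.09, adjusted p = 0.24). WFS1 had 13.6, 9.84 and 11.9 CPM there, below the 15, 14.1 and 15.6 CPM of the controls (-0.34 ± 0.14, adjusted p = 0.207).

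The sensor genes EIF2AK3 and ERN1 and the transcription factor gene XBP1 had log2 fold changes of 0.05, -0.01 and 0.13 in the CCDC97 knock-down. ATF6 had 92.8, 105 and 108 CPM in CCDC97 knock-down cells and 89.4, 86 and 88.5 CPM in controls, without overlap, and did not pass (0.21 ± 0.08, adjusted p = 0.171). DNAJB9 had 16.9, 21.1 and 21.9 CPM against 17.5, 18.7 and 18.7 CPM in controls (0.12, 95% interval -0.25 to 0.49). Its replicate 1 was below and replicates 2 and 3 were above every control.

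The widest fold changes in the CCDC97 knock-down were those of HSPA13, DERL3 and WFS1, with SEL1L next. HSPA13 had 40.8, 67.1 and 56.2 CPM in CCDC97 knock-down cells and 72.9, 70.6 and 71.7 CPM in controls (-0.39 ± 0.23, adjusted p = 0.365). DERL3 had 18.3, 13.5 and 13.4 CPM against 19.8, 19 and 20.2 CPM in controls (-0.38 ± 0.15, adjusted p = 0.175). SEL1L had 78.8, 97.5 and 93.5 CPM against 75.3, 75.2 and 77.6 CPM in controls (0.24 ± 0.12, adjusted p = 0.277). The groups did not overlap in any of these genes. DERL3, chosen for naming here after its values were seen, passed without replicate 1 of the CCDC97 knock-down (log2 fold change -0.55, adjusted p = 0.0378) or of the TTC33 knock-down, which shares the estimate of the spread (-0.38, adjusted p = 0.047).

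**Figure D4:**
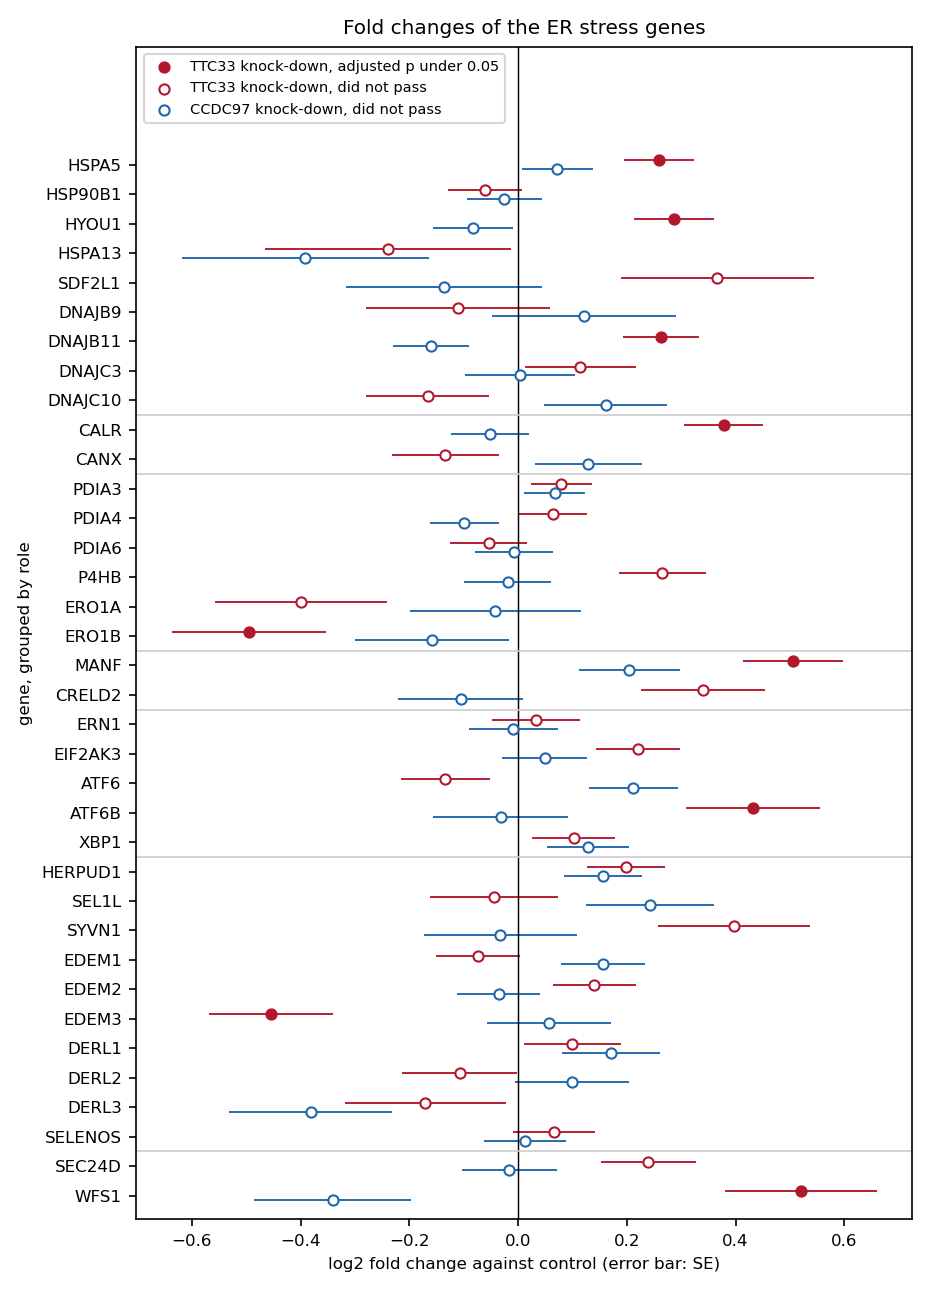
Log2 fold change against control (horizontal axis) with its SE for the 36 genes, grouped by role, in the TTC33 knock-down (red, filled where the adjusted p is under 0.05) and the CCDC97 knock-down (blue). The filled points are the 9 genes of the TTC33 knock-down, from -0.50 for ERO1B to 0.52 for WFS1, and no blue point is filled; both sets share the same 3 controls.

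The 2 knock-downs were also set against each other, which tests the difference between them without the levels of the controls. In the TTC33 knock-down relative to the CCDC97 knock-down, 10 of the 36 genes passed, against 21.5% of all genes. WFS1, ATF6B, CRELD2, CALR, DNAJB11, HYOU1, MANF and P4HB were higher (background 11.3%), and EDEM3 and ATF6 were lower (background 10.2%). The median log2 difference was 0.08 over the members and 0.005 over all genes.

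WFS1 had the widest difference, with 17.4, 24.1 and 22.7 CPM in the TTC33 knock-down and 13.6, 9.84 and 11.9 CPM in the CCDC97 knock-down (0.86 ± 0.14, adjusted p = 0.00307). DNAJB11 had 51.7, 53.9 and 49.7 CPM in the TTC33 knock-down and 39.5, 36.9 and 39.4 CPM in the CCDC97 knock-down (0.42 ± 0.07, adjusted p = 0.00293). Of the lectins, CALR had 917, 1044 and 1093 CPM in the TTC33 knock-down and 784, 744 and 740.2 CPM in the CCDC97 knock-down (0.43 ± 0.07, adjusted p = 0.00313). No library of one knock-down reached the range of the other in these genes, nor in HYOU1 (0.37 ± 0.07, adjusted p = 0.00701).

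ATF6 was lower in the TTC33 than in the CCDC97 knock-down, with 87.7, 76 and 76.7 CPM in the TTC33 knock-down and 92.8, 105 and 108 CPM in the CCDC97 knock-down (-0.35 ± 0.08, adjusted p = 0.0152), while ATF6B was higher, with 43.6, 51.9 and 58.9 CPM in the TTC33 knock-down and 43.5, 33.4 and 35 CPM in the CCDC97 knock-down (0.46 ± 0.12, adjusted p = 0.0245). The related pair thus lay on opposite sides of 0 in the direct contrast, with no overlap between the knock-downs in either. CRELD2 had 28.1, 39.1 and 34.4 CPM in the TTC33 knock-down and 26.8, 24.8 and 23 CPM in the CCDC97 knock-down (0.45 ± 0.12, adjusted p = 0.0213), and EDEM3 had 97.6, 75.5 and 72.4 CPM in the TTC33 knock-down and 103, 124 and 123 CPM in the CCDC97 knock-down (-0.51 ± 0.11, adjusted p = 0.0119).

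Members outside the threshold included SYVN1 (0.43 ± 0.14, adjusted p = 0.0502) and SDF2L1 (0.50 ± 0.18, adjusted p = 0.0675), whose libraries overlapped between the knock-downs, and ERO1A (-0.36) and ERO1B (-0.34). For HSPA5 the difference was 0.19 ± 0.06 (adjusted p = 0.0596), with all TTC33 knock-down libraries the higher. HYOU1, DNAJB11, CALR and WFS1 passed in all 9 fits that left out a library. Leaving out TTC33 knock-down replicate 1, 2 or 3 gave 23, 4 or 4 members past the threshold, where 41.6%, 8.54% or 8.65% of all genes passed. Leaving out CCDC97 knock-down replicate 1, 2 or 3 gave 17, 4 or 5, where 32.9%, 8.17% or 9.74% passed, and leaving out control replicate 1, 2 or 3 gave 8, 8 or 9, where 15%, 14.6% or 15.2% passed.

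GC content moved with these results. The 1805 genes lowest in GC content, with a median of 36.7%, differed from the mean of the controls by a median log2 of 0.02, -0.44 and -0.48 in replicates 1, 2 and 3 of the TTC33 knock-down and by -0.15, 0.16 and 0.15 in those of the CCDC97 knock-down. Among the members, the 18 of lower GC content (median 40.2%) had medians of 0.09, -0.17 and -0.21 in the TTC33 knock-down, and the 18 of higher GC content (54.2%) had 0.11, 0.30 and 0.30. Across the 36 genes, which share the same libraries, GC content and log2 fold change had a Spearman correlation of 0.683 in the TTC33 knock-down, and 0.46 across all genes. It was -0.316 across the members in the CCDC97 knock-down, and 0.751 in the direct contrast.

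After per-library trends on GC content and transcript length were subtracted, that correlation was 0.291 in the TTC33 knock-down. The members of lower GC content then had medians of 0.033, 0.026 and 0.025 in the TTC33 knock-down. These lay close to the -0.024, -0.003 and 0.020 of the controls, and the CCDC97 knock-down had -0.009, 0.079 and 0.055. The members of higher GC content had 0.12, 0.17 and 0.17 in the TTC33 knock-down, against -0.022, 0.002 and 0.027 in controls. All 9 members kept their call and their direction. MANF had a corrected log2 fold change of 0.45, CALR 0.29 and HSPA5 0.28. The value of HYOU1 was 0.16, that of ATF6B 0.27, that of WFS1 0.32, that of EDEM3 -0.30 and that of ERO1B -0.27, all closer to 0 than without the correction, and DNAJB11 had 0.50, farther from 0. Its TTC33 knock-down libraries lay 0.26, 0.32 and 0.20 above the control mean before the correction. After it they lay farther apart, at 0.24, 0.66 and 0.59, so the corrected size is uncertain.

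With the correction 19 members passed with TTC33 depleted, 15 of them higher and 4 lower, against 27.5% of all genes. Those added included the sensor gene EIF2AK3 (0.26, adjusted p = 0.00358), XBP1 (0.23, adjusted p = 0.0108), the PERK inhibitor gene DNAJC3 (0.24, adjusted p = 0.00184), CRELD2 (0.24), HERPUD1 (0.19) and SYVN1 (0.25), all higher, and ERO1A (-0.25) and DERL3 (-0.35), both lower. Another 7 members, which had not passed, changed sign, namely HSP90B1, DNAJB9, HSPA13, SEL1L, DERL2, PDIA4 and ERN1, and all lay between -0.05 and 0.09 after the correction.

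In the CCDC97 knock-down the correction gave 8 members past the threshold, a share of 22.2% that lay near the 19.6% of all genes. MANF (0.20), ATF6 (0.19), SEL1L (0.21), EDEM1 (0.16) and DNAJC10 (0.14) were higher, and HSPA13 (-0.41), DERL3 (-0.32) and ERO1B (-0.19) were lower. In the direct contrast P4HB lost its call, with a corrected log2 difference of 0.02 in place of 0.28, and the other 9 kept theirs, with changed sizes. The corrected difference was 0.16 for HYOU1, 0.22 for ATF6B, 0.56 for WFS1 and -0.32 for EDEM3, each closer to 0 than without the correction, and 0.72 for DNAJB11, farther from 0. For CALR it was 0.30, for CRELD2 0.32, for MANF 0.25 and for ATF6 -0.24. Leaving out replicate 1 of both knock-downs gave 26 members past the threshold in the TTC33 knock-down, 14 higher, against 48.7% of all genes, and 19 in the CCDC97 knock-down, 12 higher, against 35.6%. What part GC content has in the uncorrected values was not tested beyond these fits.

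**Figure D5:**
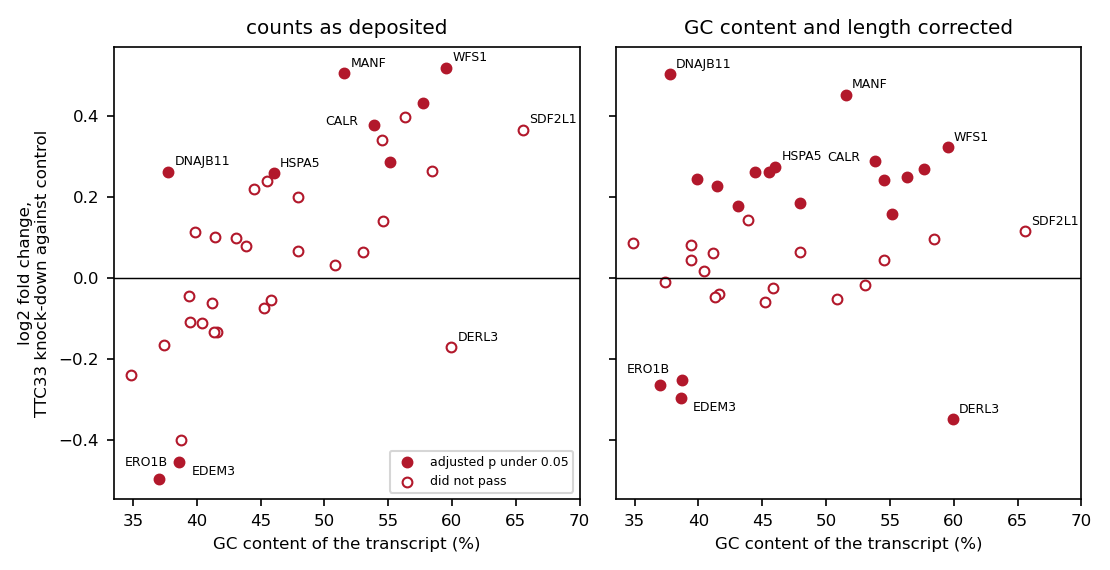
Log2 fold change of the 36 genes in the TTC33 knock-down against control (vertical axis) by the GC content of the longest transcript (horizontal axis, percent). Values are from the counts as deposited (left) and after the GC content and length correction (right). Filled points passed. On the left the fold changes follow GC content, and on the right MANF, CALR, HSPA5, WFS1 and DNAJB11 are above 0 and EDEM3 and ERO1B below it, as on the left.

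Set beside the promoter elements, 3 of the 12 members with an ERSE, an ERSE-II or a UPRE rose in the TTC33 knock-down and 1 fell. Of the 20 without one 4 rose and 1 fell. Over all genes 6.5% were higher and 5.44% lower. The 3 that rose were HSPA5, CALR and HYOU1 and the one that fell was ERO1B, which all carry sequences shown above. The median log2 fold change was 0.15 with and 0.07 without such an element, and -0.02 and -0.0025 in the CCDC97 knock-down. The ranges in the TTC33 knock-down overlapped, at -0.495 to 0.378 with and -0.454 to 0.52 without an element. MANF, DNAJB11, ATF6B and WFS1, which rose, had none of these letters in their windows. CRELD2, HSP90B1, PDIA6, CANX and XBP1 held an ERSE and did not pass. SDF2L1, HERPUD1 and DNAJC10, which held an ERSE-II or a UPRE, did not pass either.

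The PERK branch acts through translation and the transcription factor ATF4. Of 9 genes listed for that branch, 2 rose and 1 fell in the TTC33 knock-down (33.3% passed, against 11.9% of all genes), and none passed in the CCDC97 knock-down (4.56% of all genes). PPP1R15A, the phosphatase subunit that restarts translation, had 36.5, 40.5 and 45.3 CPM in the TTC33 knock-down and 22.3, 22.4 and 24.3 CPM in controls (0.82 ± 0.10, adjusted p = 0.000648). ATF3, a stress transcription factor, had a log2 fold change of 0.26, and the asparagine synthetase gene ASNS, an ATF4 target, had 3.18, 3.02 and 2.45 CPM against 5.22, 4.52 and 4.38 CPM in controls (-0.70 ± 0.15, adjusted p = 0.0149). ATF4 itself did not pass in the TTC33 knock-down (-0.11, adjusted p = 0.387). Nor did DDIT3 (0.37, adjusted p = 0.0539), CHAC1 (0.12), TRIB3 (-0.02), PPP1R15B (-0.05) and EIF2S1 (-0.06).

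Among 11 genes that process ATF6 and XBP1 or act with them, 2 rose and 2 fell in the TTC33 knock-down (36.4%, against 11.9% of all genes). The genes that fell encode the proteases that cut ATF6 in the Golgi, MBTPS1 with 161, 155 and 149 CPM against 183, 188 and 188 CPM in controls (-0.26 ± 0.06, adjusted p = 0.0222), and MBTPS2 with 85.5, 62.7 and 60.6 CPM against 95, 92.1 and 97.2 CPM (-0.45 ± 0.12, adjusted p = 0.0331). MBTPS1 kept its call after the GC content and length correction and MBTPS2 did not (log2 fold change -0.15, adjusted p = 0.0617). CREB3, a related factor cut by the same proteases, rose (0.39, adjusted p = 0.0339), as did the NF-Y subunit gene NFYC (0.34, adjusted p = 0.05, just under the threshold). In the CCDC97 knock-down 1 of the 11 passed (9.09%, against 4.56% of all genes), NFYA, another subunit of NF-Y, which was higher (0.35, adjusted p = 0.0142).

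Of 17 genes of the translocon, its receptor and signal peptidase, through which proteins enter the ER, 3 rose and none fell in the TTC33 knock-down (17.6%, against 11.9% of all genes): SEC61A1, the channel itself (0.32 ± 0.06, adjusted p = 0.0106), the signal recognition receptor gene SRPRA (0.28) and the signal peptidase gene SEC11C (0.32). In the CCDC97 knock-down SEC61B (0.42) and SPCS1 (0.41) rose (11.8%, against 4.56%). Of 16 genes of N-glycosylation and glycan quality control, 3 rose with TTC33 depleted, the malectin gene MLEC (0.25), the cargo lectin gene LMAN2 (0.48) and RPN1 of the oligosaccharyltransferase (0.20), and 1 with CCDC97 depleted, OST4 of the same enzyme (0.38), which are shares of 18.8% and 6.25% against the same 11.9% and 4.56%.

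Of 26 other folding factors, 25 were tested and FKBP2 was not. The collagen chaperone gene FKBP10 fell (-0.46 ± 0.11, adjusted p = 0.0198) and the thioredoxin-like gene TXNDC11 rose (0.32) in the TTC33 knock-down, and none passed in the CCDC97 knock-down. The share of 8% in the TTC33 knock-down lay below the 11.9% of all genes. Of 20 other degradation factors 4 rose with TTC33 depleted (20%, against 11.9%): UFD1 (0.30) and NPLOC4 (0.29), which partner the segregase VCP, the lectin gene OS9 (0.26) and DNAJB12 (0.31). In the CCDC97 knock-down 1 fell (5%, near the 4.56% of all genes), the ubiquitin-conjugating enzyme gene UBE2G2, with 132, 117 and 132 CPM in CCDC97 knock-down cells and 190.2, 185 and 182 CPM in controls (-0.55 ± 0.07, adjusted p = 0.00212).

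The COPII coat carries cargo out of the ER and the KDEL receptors bring escaped chaperones such as BiP back to it. Of 12 such genes, 4 rose and 2 fell in the TTC33 knock-down (50%, against 11.9% of all genes), and 3 passed in the CCDC97 knock-down (25%, against 4.56%). The coat gene SEC13 rose (0.36 ± 0.07, adjusted p = 0.00804), while the receptor gene KDELR2 fell, with 124, 82.9 and 82.4 CPM in the TTC33 knock-down and 154, 157 and 161 CPM in controls (-0.70 ± 0.15, adjusted p = 0.0159). The coat genes SEC24C (0.27) and SEC31A (0.27) rose, and of the GTPase genes that start the coat SAR1A rose (0.29) and SAR1B fell (-0.62). With CCDC97 depleted SEC31A (0.28) and SAR1A (0.36) rose and another receptor gene, KDELR3, fell, with 7.92, 9.65 and 9.68 CPM in CCDC97 knock-down cells and 16.2, 16.2 and 18.2 CPM in controls (-0.90 ± 0.13, adjusted p = 0.00402). KDELR3 did not pass in the TTC33 knock-down (-0.04), nor KDELR2 in the CCDC97 knock-down (-0.10), and between the knock-downs both differed (0.85 and -0.61, adjusted p = 0.00199 and 0.0182). Of the 25 genes of these lists that passed with TTC33 depleted, 24 also passed after the GC content and length correction, all but MBTPS2. All 8 that passed with CCDC97 depleted did so after it. PPP1R15A in the TTC33 knock-down and UBE2G2 and KDELR3 in the CCDC97 knock-down passed in all 9 fits that left out a library, the others in 2 to 7.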

How the data were processed

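Per the labels' protocols, total RNA was extracted with hot acid phenol for 9 libraries in 3 groups of 3. The authors deposited raw counts per gene as whole numbers without normalization, made with Trimmomatic 0.39, HISAT2 and HTSeq 2.0.1 on GRCh38, per the submitters' processing notes. The sources used here do not give the strand setting or annotation release. Per library there is a table marked R12, used here, and a smaller one marked U (6.55% to 11.9% of the sum), whose meaning is not stated. Rows that name no gene held 33.4% to 57.9% of the R12 counts and were left out. Their share was 45.1%, 45.3% and 50.3% in the TTC33 knock-down, above the 37.4%, 34.4% and 41.6% of the controls. In the CCDC97 knock-down it was 43.4%, 33.4% and 57.9%.

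After filterByExpr, 18299 genes entered the two-sided quasi-likelihood test of edgeR 4.0.16 (R 4.3.3) with TMM factors, 1 coefficient for each group and all 9 libraries, which left 6 residual degrees of freedom. The groups share the estimate of the spread, although replicates differed less in controls. Chi-square per degree of freedom between replicates was 3.56 to 6.24 in controls and 26.8 to 33.8 in the CCDC97 knock-down. In the TTC33 knock-down it was 31.5 and 37.9 for replicate 1 against 2 and 3, and 7.36 between these. A gene passed at a Benjamini-Hochberg adjusted p under 0.05, taken over those genes. CPM are counts scaled to a TMM-adjusted library total of 1000000, and log2 CPM per library have a prior count of 2. Intervals of log2 fold changes are at 95%. GC content and length came from GENCODE release 29 transcripts (18042 genes, 98.6%), and their trends were fitted per library with mgcv 1.9.3. GC content was that of the longest transcript of a gene. Length was that of the longest transcript marked as principal, or of the longest transcript where none was marked, so the values can describe different transcripts. Coordinates of genes are from the same release, promoter windows from RefSeq. The edgeR test was checked on simulated counts. Not every gene of the marker list is reported here.

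The 36 members and the other lists were chosen with earlier results of these data known. All members are accounted for; values per library are given for those past the threshold, for the sensors and main markers, and for up to 4 further members with the widest fold change in a comparison. Of each other list, up to 3 genes with the smallest adjusted p are named; further ones were added after their values were seen. Alternatives were other scaling factors and filters, DESeq2 1.42.0, fits of 2 groups, the replicate number as a block, the U counts, the GC content and length correction, and leaving out libraries.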

Additional observations from a re-analysis of the deposited data

Results flagged for a closer look

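The members below are given again because their effects differed between the knock-downs, by edgeR's test of the TTC33 against the CCDC97 knock-down at an adjusted p of 0.05. Higher with TTC33 depleted were the membrane protein gene WFS1 (log2 difference 0.86), the transcription factor gene ATF6B (0.46), the secreted stress protein genes CRELD2 (0.45) and MANF (0.30), and the chaperone and isomerase genes CALR (0.43), DNAJB11 (0.42), HYOU1 (0.37) and P4HB (0.28). EDEM3, which trims glycans of misfolded proteins, and the stress sensor gene ATF6 were lower (-0.51 and -0.35). After the GC content and length correction P4HB had 0.02 and did not pass. The other 9 passed, with 0.56 for WFS1, 0.22 for ATF6B, 0.32 for CRELD2, 0.25 for MANF, 0.30 for CALR, 0.72 for DNAJB11, 0.16 for HYOU1, -0.32 for EDEM3 and -0.24 for ATF6.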

How the results depend on the processing

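The number of members past the threshold moved with the settings, as did that of all genes. No member that passed in the fit used above changed sign under any of them. HSPA13, outside the threshold in that fit, passed between the knock-downs with opposite signs under other settings. Its log2 difference was 0.49 with the GC content and length correction and -0.38 without replicate 1 of both knock-downs. The share of all genes that passed follows each count in parentheses. With TTC33 depleted the count was 9 (11.9%) against control. With the replicate number as a block it was 2 (4.13%), MANF and CALR, and from the U counts alone 1 (2.89%), CALR. DESeq2 gave 11 (18.3%), and the fit without a filter on low counts gave 13 (10.2%). The GC content and length correction gave 19 (27.5%), and 19 (25.1%) with the replicate block added. Without replicate 1 of both knock-downs it was 26 (48.7%). It was 1 to 18 (2.96% to 34.9%) when each library was left out in turn. With CCDC97 depleted the count was 0 (4.56%). It was 2 (3.65%) without a filter on low counts, 8 (19.6%) with the correction and 6 (17.5%) with the correction and the replicate block. Without replicate 1 of both knock-downs it was 19 (35.6%), and without a library 0 to 1 (1.09% to 10.6%). Between the knock-downs it was 10 (21.5%). It was 16 (27%) by DESeq2, 17 (13.9%) without a filter and 15 (30.7%) with genes of at least 5 CPM on average. A fit of the 2 groups alone gave 5 (8.4%), the replicate block 5 (10.1%) and the U counts 3 (5.67%). With the correction it was 16 (28.6%), and 16 (26.2%) with the block added. It was 26 (55.2%) without replicate 1 of both, and 4 to 23 (8.17% to 41.6%) without a library. Whether the replicate number pairs the libraries was not settled. Same-numbered ones correlated at -0.504 to 0.094 over their deviations from the group means, and not every library correlated best with its own number. Between control and TTC33 knock-down libraries each one did, at 0.073, 0.040 and 0.068 for replicates 1, 2 and 3. Differently numbered libraries of these groups correlated at -0.067 to 0.020. With the block 756, 240 and 1857 of all genes passed in the TTC33, the CCDC97 and the direct comparison, against 2186, 835 and 3943 without it. The cause of these shifts was not tested. Over all genes and all settings the counts ranged from 362 to 9129 in the TTC33 knock-down, from 69 to 6675 in the CCDC97 knock-down and from 709 to 10362 between them. The median log2 fold change of the members was 0.05 to 0.10 in the TTC33 knock-down under all settings. Groups of 3 libraries limit what can be called.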
